A study of Mus musculus with 2 samples.

Results

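The genes described here encode parts of the machinery that docks and fuses secretory vesicles at the plasma membrane. They were chosen by name as 8 of the 25507 genes in both count tables: the synaptotagmin genes Syt13 and Syt7, the SNARE genes Snap25, Stx1a and Vamp2, the small GTPase genes Rab3a and Rab3b, and Aplp1, which encodes an amyloid precursor-like membrane protein. All 8 had UMIs in both libraries and all 8 passed the filter on low counts. They were measured by droplet single-cell RNA sequencing (inDrop) in 2 libraries of wild type mouse pancreas at E14.5 (labelled pancreatic islet), sorted by flow cytometry on the Ngn3eGFP reporter, low and high. Each count is a unique molecular identifier (UMI), a tag for 1 captured RNA molecule. Which cell came from which gate is not stated, nor whether the libraries came from different embryos. The p-values thus measure only how far differences between cell groups vary between these 2 libraries, pooled over groups and moderated across genes. That spread may be technical.

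When a vesicle fuses, Vamp2 on its membrane zips up with Stx1a and Snap25 on the plasma membrane, and this bundle draws the membranes together. Syt7 is a calcium sensor for that step, Syt13 is an atypical synaptotagmin known from endocrine precursors, and Rab3a and Rab3b hold vesicles near their release sites. Neurons and islet cells share this apparatus, and insulin and glucagon leave the cell through it. In the embryonic pancreas endocrine cells arise from trunk epithelium through a phase of high Neurog3, the transcription factor that starts their programme.

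Cells were grouped by raw UMIs of marker genes that are not among the 8, with immune, hormone and acinar rules taking precedence. Spp1 cells (trunk epithelium, at least 3 Spp1 UMIs and under 3 of Neurog3 and of Chgb) numbered 106 in library 1 and 210 in library 2. Neurog3-high cells (at least 3 Neurog3 UMIs, under 3 of the granule gene Chgb) numbered 113 and 179, Neurog3+Chgb+ cells (at least 3 of both) 10 and 16, and Chgb-high cells (at least 3 Chgb UMIs, under 3 of Neurog3) 92 and 144. Insulin-high cells (at least 10 UMIs of Ins1 and Ins2 together) numbered 45 and 109, Gcg-high cells (at least 5 UMIs of the glucagon gene) 29 and 55, and Cpa1-high acinar cells (at least 5 Cpa1 UMIs) 9 and 85. Immune cells (at least 5 UMIs over 7 macrophage markers), 7 and 60, were taken as a guide to the background from free RNA. Any expression of their own cannot be told apart from that background. A further 103 and 210 cells met no rule, and 1 and 2 met more than 1 hormone or acinar rule. Other hormones were not used for grouping: 23 of 92 and 41 of 144 Chgb-high cells had 5 or more UMIs of Ghrl, Sst, Ppy or Pyy, mostly Pyy.

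After filters library 1 held 515 cells and 1829453 UMIs and library 2 held 1070 cells and 3352226 UMIs. Median depth per named group ran from 2673.5 to 4401 UMIs per cell, apart from the small Cpa1-high group of library 1 at 6209 and ungrouped cells at 2357 and 2518. Against the islet label, trunk, acinar and immune cells were present as well. The 8 endocrine markers, Chgb among them, summed to 9388 and 10747 CPM (UMIs of a gene over all UMIs of the group, times 1e+06) in Chgb-high cells, against 258 and 299 CPM in Spp1 cells. Neurons use the same fusion genes. The summed level of 10 neuron and neural crest markers ran from 82.7 to 130 CPM over the 6 groups tested and was 119 to 123 CPM in Chgb-high cells, against 88.3 to 95.5 CPM in Neurog3-high cells. All 10 had UMIs in both of these groups, and their part in the results was not tested. The libraries shared 3 cell barcodes.

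In GENCODE M21 on GRCm38, Syt13 lies on chromosome 2 (92915098 to 92956058, plus strand) and Syt7 on chromosome 19 (10389090 to 10453180, plus strand). Snap25 is on chromosome 2 (136713453 to 136782428, plus strand), Stx1a on chromosome 5 (135023482 to 135051100, plus strand) and Vamp2 on chromosome 11 (69088490 to 69092384, plus strand). Rab3a is on chromosome 8 (70754679 to 70758677, plus strand), Rab3b on chromosome 4 (108879063 to 108943324, plus strand) and Aplp1 on chromosome 7 (30434982 to 30445535, minus strand). Exons of 3 of them overlap a gene on the other strand: Mpv17l2 at Rab3a, 8030443G20Rik at Rab3b and Gm26859 at Syt7. Without stated use of strand in counting, reads there cannot be assigned with certainty. Mpv17l2 stood at 15.7 and 29.2 CPM in Chgb-high cells, against 54.2 and 33.8 CPM in Neurog3-high cells, and at 47.3 and 41.5 CPM in insulin-high cells. 8030443G20Rik stood between 0 and 24.4 CPM over the groups. The part of these overlaps in the results was not tested.

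RefSeq promoters (GRCm38.p6, from 250 bases before to 50 after a start) were found for 4 of the 8 genes, not for Syt13, Syt7, Snap25 and Vamp2. They are shown because Aplp1 was high in Neurog3-high cells while Rab3a, Stx1a and Rab3b did not pass there and were higher in Chgb-high cells, as given below. Capitals mark E-boxes, the CANNTG sites of basic helix-loop-helix factors such as Neurog3, and matches to GGACAG, a part of the site of the neuronal repressor Rest; both strands were searched. Aplp1 is at chr7:30445533-30445832 on the minus strand, Rab3a at chr8:70754453-70754752, Stx1a at chr5:135023232-135023531 and Rab3b at chr4:108878820-108879119, all on the plus strand.
Aplp1: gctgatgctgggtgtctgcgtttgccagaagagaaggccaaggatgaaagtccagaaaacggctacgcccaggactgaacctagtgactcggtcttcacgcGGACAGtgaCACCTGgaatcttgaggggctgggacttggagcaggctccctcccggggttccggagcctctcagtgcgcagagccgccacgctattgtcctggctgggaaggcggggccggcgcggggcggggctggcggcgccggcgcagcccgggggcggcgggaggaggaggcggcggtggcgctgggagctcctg
Rab3a: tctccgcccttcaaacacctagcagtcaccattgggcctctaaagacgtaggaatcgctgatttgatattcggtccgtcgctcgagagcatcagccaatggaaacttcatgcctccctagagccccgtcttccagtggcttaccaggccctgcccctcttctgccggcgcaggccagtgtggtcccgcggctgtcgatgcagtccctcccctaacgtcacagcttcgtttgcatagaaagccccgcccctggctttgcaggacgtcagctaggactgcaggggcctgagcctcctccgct
Stx1a: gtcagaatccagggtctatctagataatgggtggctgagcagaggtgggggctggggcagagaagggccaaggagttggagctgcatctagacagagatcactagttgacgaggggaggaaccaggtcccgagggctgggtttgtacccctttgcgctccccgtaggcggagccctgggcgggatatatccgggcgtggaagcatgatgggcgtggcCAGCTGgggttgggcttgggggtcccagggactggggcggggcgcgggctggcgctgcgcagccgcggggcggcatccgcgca
Rab3b: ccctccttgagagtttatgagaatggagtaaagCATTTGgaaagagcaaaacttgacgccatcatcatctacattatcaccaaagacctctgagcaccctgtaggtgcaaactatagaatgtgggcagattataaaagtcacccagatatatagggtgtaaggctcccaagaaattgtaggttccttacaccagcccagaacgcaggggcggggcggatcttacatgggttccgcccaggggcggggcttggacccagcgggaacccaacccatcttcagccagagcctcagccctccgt
The Aplp1 window holds 1 E-box and, just before it, 1 piece of the Rest site. Stx1a and Rab3b hold 1 E-box each and this Rab3a window 0, while a second Rab3a start, at chr8:70754852-70755151 (plus strand, not printed), holds 3. Of 32851 mouse promoters of the same length 72.3% hold an E-box and 22.2% hold that piece. The E-box form CAGATG is held by 17.2% of promoters, the form CATATG by 3.91%, and the other piece of the Rest site, TTCAGCACC, by 0.371%. These last motifs are not among the letters of these windows.

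Neurog3-high cells were set against Spp1 cells to ask which of the genes differ at entry into the endocrine programme. Syt13, Syt7 and Aplp1 were higher by 5.63- to 8.03-fold, and the SNARE and Rab3 genes did not pass the test. Of the 8 genes 3 were higher and 0 lower at an adjusted p under 0.05 (edgeR), where 3.9% of the 10688 genes tested were higher and 3.22% lower (7.12% in either direction). Beside that 0, edgeR gave 0 lower with p under 0.05 before adjustment and DESeq2 gave 0. The median log2 fold change was 0.74 over the 8 genes and -0.03 over all genes.

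Syt13 stood at 392 CPM in library 1 and 404 CPM in library 2 in Neurog3-high cells, against 51.6 and 48.2 CPM in Spp1 cells. The groups did not overlap, and the log2 fold change was 3.005 ± 0.25 (SE; edgeR adjusted p = 4.44e-21). Syt7 stood at 333 and 361 CPM in Neurog3-high cells, against 56.5 and 33.2 CPM in Spp1 cells (log2 fold change 2.999 ± 0.26, edgeR adjusted p = 2.88e-19). Aplp1 stood at 304 and 421 CPM in Neurog3-high cells, against 66.3 and 63.1 CPM in Spp1 cells (2.49 ± 0.22 on the log2 scale, edgeR adjusted p = 9.44e-19). Each of these 3 was higher in Neurog3-high cells in both libraries.

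The share of cells with a Syt13 UMI was 54.0% and 53.1% in Neurog3-high cells, against 15.1% and 12.4% in Spp1 cells. In immune cells of library 2 it was 16.7% (10 of 60 cells), at a median depth of 2924 UMIs against 2673.5 in the Spp1 cells of that library. The Spp1 share there thus did not exceed that of immune cells. With every cell thinned to 1500 UMIs the Syt13 shares were 36.4% and 38.7% in Neurog3-high cells, against 5.78% and 6.45% in Spp1 cells. Thinning left out 6 and 10 Neurog3-high cells and 5 and 25 Spp1 cells with fewer UMIs. Syt7 and Aplp1 gave like thinned shares, 32.1% and 36.2% for Syt7 and 27.5% and 38.0% for Aplp1 in Neurog3-high cells. In Spp1 cells they were 8.07% and 3.83% for Syt7 and 8.08% and 7.53% for Aplp1.

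The 3 SNARE genes had low counts in both groups. Snap25 stood at 25.8 and 28.2 CPM in Neurog3-high cells, against 31.9 and 23.3 CPM in Spp1 cells, and its log2 fold change of 0.0087 has an approximate 95% interval of -0.94 to 0.96. Vamp2 stood at 33.5 and 32.0 CPM in Neurog3-high cells, against 19.7 and 41.5 CPM in Spp1 cells (interval -0.85 to 0.93). Stx1a stood at 25.8 and 7.52 CPM in Neurog3-high cells, against 12.3 and 19.9 CPM in Spp1 cells (interval -1.30 to 1.12). The groups overlap for all 3 SNARE genes, and a change of the size seen for Syt13 lies outside each interval. Immune cells of library 2 stood at 28.3 CPM for Snap25, 22.7 CPM for Vamp2 and 5.66 CPM for Stx1a, on 5, 4 and 1 UMIs. The intervals do not correct for free RNA, and its part was not tested.

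Rab3a had 8 UMIs in each library in Neurog3-high cells, against 3 and 9 in Spp1 cells, and Rab3b had 5 and 4, against 2 and 3. Their log2 fold changes, 0.55 ± 0.64 and 0.92 ± 0.83 (SE), did not pass (edgeR adjusted p = 0.773 and 0.680). At these counts the intervals, -0.70 to 1.81 for Rab3a and -0.71 to 2.54 for Rab3b, leave room for more than a doubling.

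**Figure D1:**
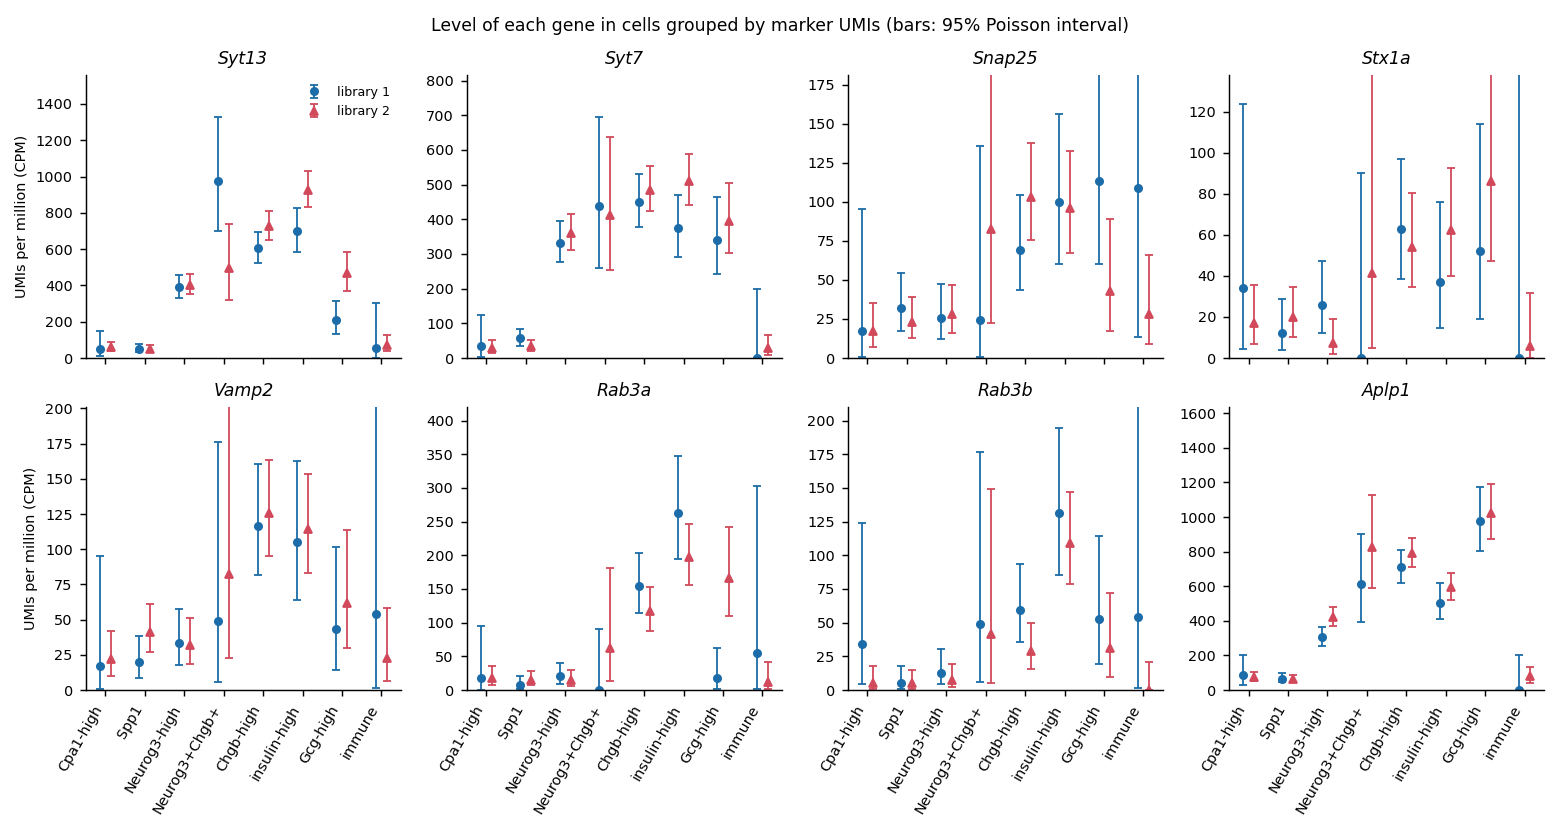
Level in CPM of each of the 8 genes in cells grouped by marker UMIs; points are the 2 libraries and bars are 95% Poisson intervals, which cover counting error only and run off the top of a panel for groups with few UMIs. Syt13, Syt7 and Aplp1 stand above 300 CPM in Neurog3-high cells, against under 70 CPM in Spp1 cells, while Rab3a stands at 15.0 to 20.6 CPM in Neurog3-high cells and at 117 and 154 CPM in Chgb-high cells.

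Chgb-high cells were set directly against Neurog3-high cells, a comparison added once the small size of the Neurog3+Chgb+ group was known. The SNARE and Rab3 genes, all 5, were higher in Chgb-high cells by 3.05- to 7.20-fold. Aplp1 and Syt13 were higher there by 1.98- and 1.59-fold, and Syt7 did not pass. All cells are from E14.5, so the groups do not measure an order in time. In all 7 of the 8 genes were higher and 0 lower, where 4.14% of the genes tested were higher and 5.8% lower (9.94% either way). Beside that 0, edgeR gave 0 lower with p under 0.05 before adjustment, and DESeq2 gave 4 higher and 0 lower. The median log2 fold change was 1.71 over the 8 genes and 0.014 over all genes. The Neurog3-high sums serve in this comparison and the one before, which are therefore not independent.

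Rab3a stood at 154 and 117 CPM in Chgb-high cells, against 20.6 and 15.0 CPM in Neurog3-high cells (log2 fold change 2.85 ± 0.44, edgeR adjusted p = 9.49e-08). Its share of cells with a UMI, thinned, was 18.7% and 15.4% in Chgb-high cells, against 3.23% and 1.72% in Neurog3-high cells. Rab3b stood at 59.7 and 29.2 CPM in Chgb-high cells, against 12.9 and 7.52 CPM in Neurog3-high cells (1.99 ± 0.59, edgeR adjusted p = 0.0132). Those Rab3b levels rest on 19 and 13 UMIs in Chgb-high cells, against 5 and 4 in Neurog3-high cells.

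Vamp2, the vesicle SNARE gene, stood at 116 and 126 CPM in Chgb-high cells, against 33.5 and 32.0 CPM in Neurog3-high cells (1.82 ± 0.39, edgeR adjusted p = 0.000175). Snap25, a SNARE gene of the plasma membrane, stood at 69.2 and 103 CPM in Chgb-high cells, against 25.8 and 28.2 CPM in Neurog3-high cells (1.61 ± 0.43, edgeR adjusted p = 0.00415). Stx1a, its partner there, stood at 62.9 and 53.9 CPM in Chgb-high cells, against 25.8 and 7.52 CPM in Neurog3-high cells (1.80 ± 0.53, edgeR adjusted p = 0.0132). For each of the 3 the libraries of the groups do not overlap. With 2 libraries per group that is a weak criterion, here and elsewhere, and its share over all genes was not counted.

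At least 1 UMI of Snap25, Stx1a or Vamp2 was found in 44.6% (95% exact binomial interval 34.2% to 55.3%) and 53.5% (45.0% to 61.8%) of Chgb-high cells. In Neurog3-high cells it was 23.9% (16.4% to 32.8%) and 16.8% (11.6% to 23.1%). Immune cells gave 42.9% (3 of 7 cells, 9.90% to 81.6%) and 15.0% (9 of 60 cells, 7.10% to 26.6%). Their intervals overlap those of the Neurog3-high cells of the same library. In library 1 the immune interval also spans that of Chgb-high cells, and in library 2 it lies below that of Chgb-high cells. These shares were not thinned. UMIs of all 3 in the same cell were rare even in Chgb-high cells, at 1 of 92 and 2 of 144 cells, so these counts are too sparse to compare groups.

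Aplp1 stood at 711 and 793 CPM in Chgb-high cells, against 304 and 421 CPM in Neurog3-high cells (0.98 ± 0.18, edgeR adjusted p = 5.51e-06). Syt13 stood at 604 and 726 CPM in Chgb-high cells, against 392 and 404 CPM in Neurog3-high cells (0.67 ± 0.19, edgeR adjusted p = 0.00882). Syt7 stood at 449.6 and 485 CPM in Chgb-high cells, against 333 and 361 CPM in Neurog3-high cells. Its log2 fold change of 0.36 ± 0.20 missed the threshold (edgeR adjusted p = 0.321, interval -0.036 to 0.76). DESeq2 did not call Syt13 (adjusted p = 0.278), Stx1a (0.131) or Rab3b (0.0547), and Syt13 also missed without the library term (edgeR adjusted p = 0.105). Rab3b missed without the cells rich in other hormones (edgeR adjusted p = 0.139), as did Stx1a with doubled marker thresholds (edgeR adjusted p = 0.0890).

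**Figure D2:**
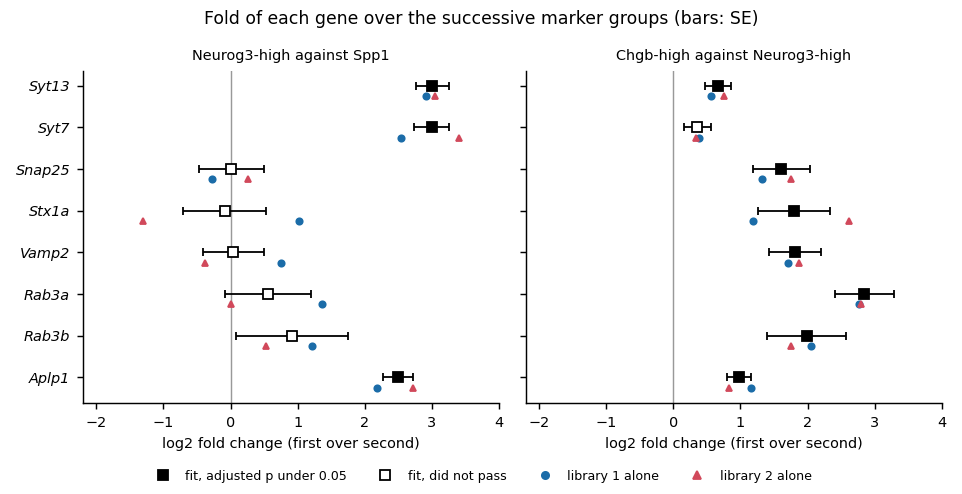
Log2 fold change of each gene in Neurog3-high cells against Spp1 cells (left) and in Chgb-high cells against Neurog3-high cells (right); squares with SE bars are the fit, filled where the edgeR adjusted p was under 0.05, and smaller points are each library alone. Syt13, Syt7 and Aplp1 carry log2 fold changes of 2.49 to 3.005 on the left, and Rab3a, Rab3b, Vamp2, Stx1a and Snap25 carry 1.61 to 2.85 on the right.

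The level in Neurog3-high cells as a share of the level in Chgb-high cells sets the 8 genes side by side within each gene. It was 74.0% (95% counting interval 57.9% to 94.6%) in library 1 and 74.3% (60.9% to 90.7%) in library 2 for Syt7. For Syt13 it was 65.0% (52.2% to 80.8%) and 55.7% (46.6% to 66.4%), and for Aplp1 42.9% (34.0% to 53.8%) and 53.1% (44.7% to 62.9%). For Rab3a it was 13.4% (5.48% to 28.5%) and 12.9% (5.28% to 27.3%), with intervals below those of Syt7, Syt13 and Aplp1 in both libraries. Vamp2 gave 28.8% and 25.4%, Rab3b 21.6% and 25.7%, Snap25 37.3% and 27.3%, and Stx1a 41.0% and 13.9%. The intervals of these 4 reach from 3.52% to 91.9%, and in library 1 all 4 overlap those of Aplp1 and Syt13. Those of Rab3b, Snap25 and Stx1a overlap that of Syt7 there as well. In library 2 the intervals of Rab3b (6.11% to 83.3%) and Snap25 (14.1% to 49.7%) overlap those of Aplp1 and Syt13. That of Rab3b overlaps the Syt7 interval there too. Syt7, Syt13 and Aplp1 held the 3 highest shares in both libraries, and this order between genes was not tested.

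Neurog3+Chgb+ cells, which hold both markers, give sums of only 40963 and 48390 UMIs. None of the 8 genes passed against Neurog3-high cells (0 higher and 0 lower, where 0.739% of genes were higher, 1.61% lower and 2.35% either), with 2 higher and 0 lower with p under 0.05 before adjustment by edgeR and 1 higher and 0 lower by DESeq2. None passed in Chgb-high against Neurog3+Chgb+ cells either (0.496% of genes higher, 0.131% lower, 0.627% either), with 1 higher and 0 lower with p under 0.05 before adjustment and 0 and 0 by DESeq2, which gave no adjusted p for 5 of the 8. The median log2 fold change over all genes was -0.28 in the first of these comparisons and 0.28 in the second, and -0.15 and 0.13 with RLE size factors. Aplp1 stood at 610 and 827 CPM in Neurog3+Chgb+ cells, against 304 and 421 CPM in Neurog3-high cells (log2 fold change 0.72 ± 0.24, edgeR adjusted p = 0.0848). With the other scaling (RLE size factors) it did pass (edgeR adjusted p = 0.0285), as it did in DESeq2 (adjusted p = 0.0485). Syt13 stood at 976 and 496 CPM in Neurog3+Chgb+ cells, against 392 and 404 CPM in Neurog3-high cells (0.59 ± 0.25, edgeR adjusted p = 0.244), and its log2 fold change was 1.05 in library 1 and 0.056 in library 2. Rab3a had 0 and 3 UMIs there, so whether it is higher in cells with both markers was not detectable at this depth.

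Finer bins of marker UMIs, over cells low in insulin, glucagon and Cpa1, show how the genes vary inside the groups. Among cells with 0 Chgb UMIs, Syt7 stood at 104, 139, 257 and 463 CPM in library 1 at 0, 1 to 2, 3 to 9 and 10 or more Neurog3 UMIs. In library 2 the same bins held 128, 130, 314 and 449.8 CPM. Syt7 thus gave its highest value in the top Neurog3 bin in both libraries, with 95% counting intervals there of 361 to 586 and 364 to 549.9 CPM. Syt13 stood at 134, 125, 321 and 537 CPM in library 1 and 141, 112, 395 and 388 CPM in library 2 over these bins. The counting intervals of its top pair of bins did not overlap in library 1 (426 to 669 and 245 to 414 CPM) and did in library 2. Aplp1 stood at 197, 257, 343 and 282 CPM in library 1 and 328, 193, 429 and 393 CPM in library 2, with no steady order. The 0 and 1 to 2 bins also take in cells that met no grouping rule. In all such cells Aplp1 stood at 562 and 710 CPM, Syt13 at 306 and 364 CPM and Syt7 at 274 and 315 CPM. The bins thus differ in cell mix as well as in Neurog3, and the part of that mix was not tested. Rab3a stayed at or under 43.9 CPM in all 4 bins of both libraries.

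Over Chgb bins the picture for Rab3a was different. Rab3a stood at 16.3, 104, 98.6 and 156 CPM in library 1 and 28.1, 102, 114 and 109 CPM in library 2 at 0, 1 to 2, 3 to 9 and 10 or more Chgb UMIs. Between 0 Chgb UMIs and 1 to 2 the counting intervals did not overlap in either library (library 1 9.13 to 26.9 against 60.6 to 167 CPM, library 2 20.2 to 38.2 against 67.3 to 149 CPM). In library 1 the Rab3a value at 1 to 2 Chgb UMIs rests on 17 UMIs in 7 cells, with up to 6 in a cell. Such clumping is not covered by the intervals. Cells that met no grouping rule, with Rab3a at 72.9 and 86.8 CPM, fall in the 0 and 1 to 2 bins. The part of this cell mix was not tested. Rab3b stood at 7.62, 55.1, 57.5 and 59.0 CPM in library 1 and 13.7, 68.1, 35.1 and 26.3 CPM in library 2 over the same bins. Its library 1 value at 1 to 2 Chgb UMIs rests on 9 UMIs in 4 cells, and in library 2 the interval of its top bin (10.6 to 54.3 CPM) overlaps that at 0 (8.38 to 21.2 CPM). Vamp2 stood at 32.6, 85.7, 32.9 and 147 CPM in library 1 and 56.3, 68.1, 105 and 135 CPM in library 2, highest in the top bin of both. Cells with 1 or 2 Chgb UMIs numbered 41 and 90, and they are not a class of their own in the grouping above.

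**Figure D3:**
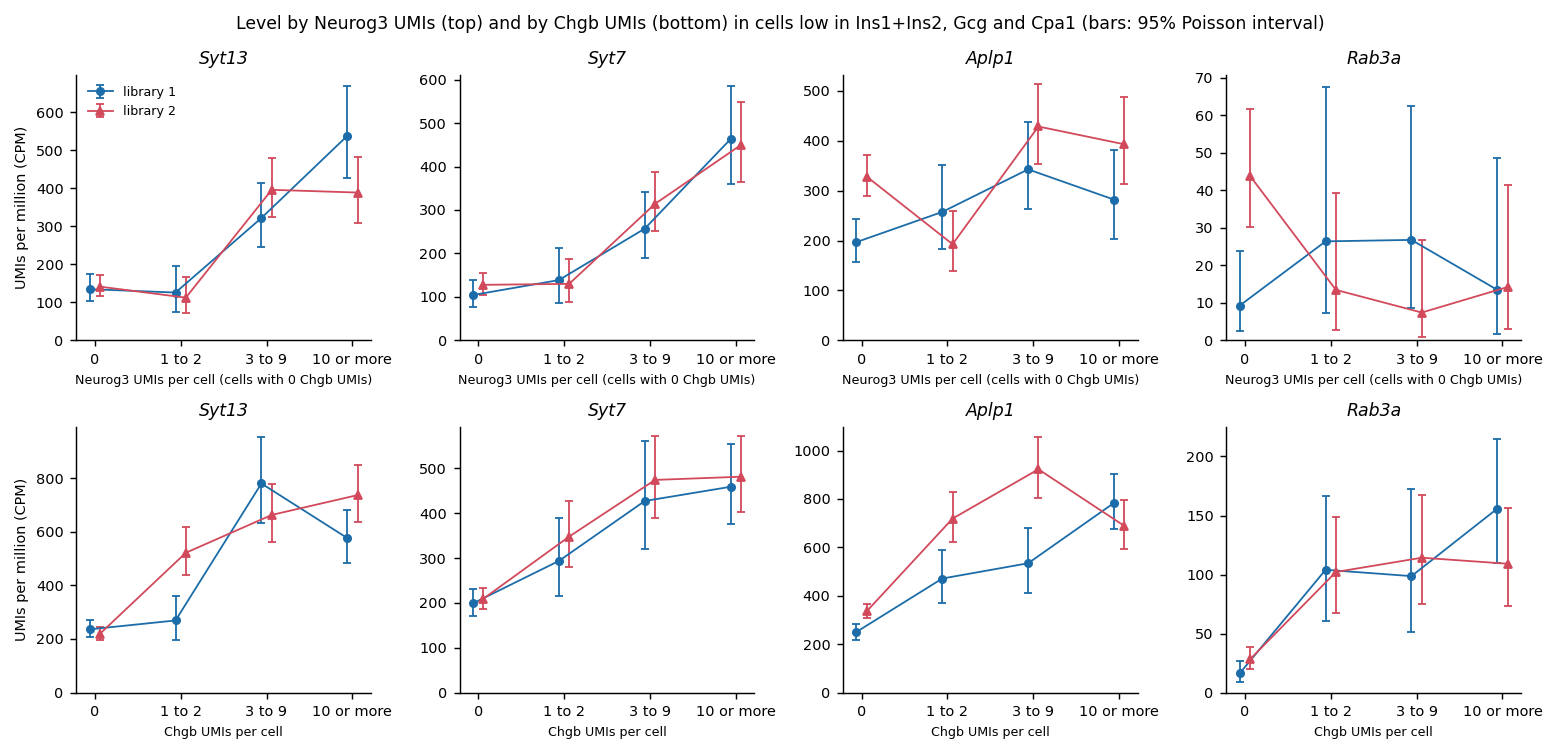
Level in CPM of Syt13, Syt7, Aplp1 and Rab3a by Neurog3 UMIs per cell among cells with 0 Chgb UMIs (top) and by Chgb UMIs per cell (bottom), over cells low in Ins1 and Ins2, Gcg and Cpa1; points are the 2 libraries and bars are 95% Poisson intervals. Syt7 is highest, at 463 and 449.8 CPM, in the top Neurog3 bin, whereas Rab3a stays at or under 43.9 CPM over the Neurog3 bins and stands at 104 and 102 CPM at 1 to 2 Chgb UMIs.

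Insulin-high and Gcg-high cells were compared to ask whether cells that make different hormones carry different amounts of these transcripts. Syt13 was 2.44-fold higher in insulin-high cells and Aplp1 was lower there, at 0.571 of the Gcg-high level. In all 1 of the 8 genes was higher and 1 lower, where 1.68% of the genes tested were higher and 1.04% lower (2.72% either way), and DESeq2 called the same number in each direction. The median log2 fold change was 0.77 over the 8 genes and 0.018 over all genes.

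Syt13 stood at 699.7 and 929 CPM in insulin-high cells, against 209.5 and 469 CPM in Gcg-high cells. The libraries of the groups do not overlap, and the log2 fold change was 1.28 ± 0.22 (edgeR adjusted p = 5.66e-06). The thinned share of cells with a Syt13 UMI was 57.1% and 66.3% in insulin-high cells, against 22.2% and 45.5% in Gcg-high cells. Aplp1 stood at 505 and 594 CPM in insulin-high cells, against 978 and 1024 CPM in Gcg-high cells (-0.81 ± 0.19, edgeR adjusted p = 0.00226, and 0.0672 without the library term). Its thinned share was 45.9% and 55.1% in insulin-high cells, against 70.9% and 72.5% in Gcg-high cells. Syt13 and Aplp1 thus differ in opposite directions between the same groups of cells, although both were higher in Neurog3-high than in Spp1 cells.

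Rab3b stood at 132 and 109 CPM in insulin-high cells, against 52.4 and 30.8 CPM in Gcg-high cells (1.63 ± 0.54, edgeR adjusted p = 0.0815). Vamp2 stood at 105 and 114 CPM in insulin-high cells, against 43.7 and 61.7 CPM in Gcg-high cells (1.08 ± 0.48, edgeR adjusted p = 0.337). The libraries do not overlap for either gene, but neither passed, and the Gcg-high values rest on 5 to 10 UMIs. Rab3b did pass in 2 refits, with only the groups compared (edgeR adjusted p = 0.0306) and with markers scaled to 3000 UMIs per cell (edgeR adjusted p = 0.0494). Rab3a stood at 263 and 197 CPM in insulin-high cells, against 17.5 and 167 CPM in Gcg-high cells, with 2 UMIs in library 1 and 27 in library 2 in the second group. Its log2 fold change was 3.68 in library 1 and 0.26 in library 2, so the fitted 1.21 ± 0.40 (edgeR adjusted p = 0.0875) describes neither, and it passed in 2 of the 9 refits. Syt7, Snap25 and Stx1a did not pass, with intervals of -0.13 to 0.79, -0.46 to 1.39 and -1.47 to 0.66.

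Against Chgb-high cells, which are low in insulin and glucagon, Rab3b was 3.01-fold higher in insulin-high cells, at 132 and 109 CPM against 59.7 and 29.2 CPM in Chgb-high cells (log2 fold change 1.59 ± 0.43, edgeR adjusted p = 0.0184). It was the only 1 of the 8 genes higher and 0 were lower, where 1.52% of genes were higher and 0.73% lower (2.25% either way). Beside that 0, edgeR gave 1 lower with p under 0.05 before adjustment (Aplp1) and DESeq2 gave 0 higher and 0 lower. The Rab3b call was lost in 4 of 9 refits, at adjusted p values up to 0.0880. Rab3a stood at 263 and 197 CPM in insulin-high cells, against 154 and 117 CPM in Chgb-high cells, and missed the threshold (0.83 ± 0.33, edgeR adjusted p = 0.251). The log2 fold changes of Rab3a, 0.85 in library 1 and 0.84 in library 2, were nearly equal.

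In Gcg-high against Chgb-high cells Syt13 was the 1 gene that passed, and it was lower, with 0 higher, where 0.533% of genes were lower and 0.487% higher (1.02% either way). It stood at 209.5 and 469 CPM in Gcg-high cells, against 604 and 726 CPM in Chgb-high cells (-0.90 ± 0.22, edgeR adjusted p = 0.0117). The call was lost in DESeq2 (adjusted p = 0.323) and without the library term (edgeR adjusted p = 0.208), and the log2 fold change was -1.50 in library 1 and -0.56 in library 2. Beside the 0 higher, edgeR gave 1 higher with p under 0.05 before adjustment, Aplp1, and DESeq2 gave 0. Aplp1 stood at 978 and 1024 CPM in Gcg-high cells, against 711 and 793 CPM in Chgb-high cells, and missed the threshold (0.44 ± 0.18, edgeR adjusted p = 0.363). It did pass once cells rich in Ghrl, Sst, Ppy or Pyy were left out of the Chgb-high group (0.63 on the log2 scale, edgeR adjusted p = 0.0260). The 3 hormone comparisons share their groups and are not independent. The 4 other hormone genes summed to 9471 and 9673 CPM in Gcg-high cells, against 2022 and 6077 CPM in Chgb-high cells. Pyy alone stood at 7594 and 8242 CPM in Gcg-high cells, and how many of those cells held it was not counted.

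**Figure D4:**
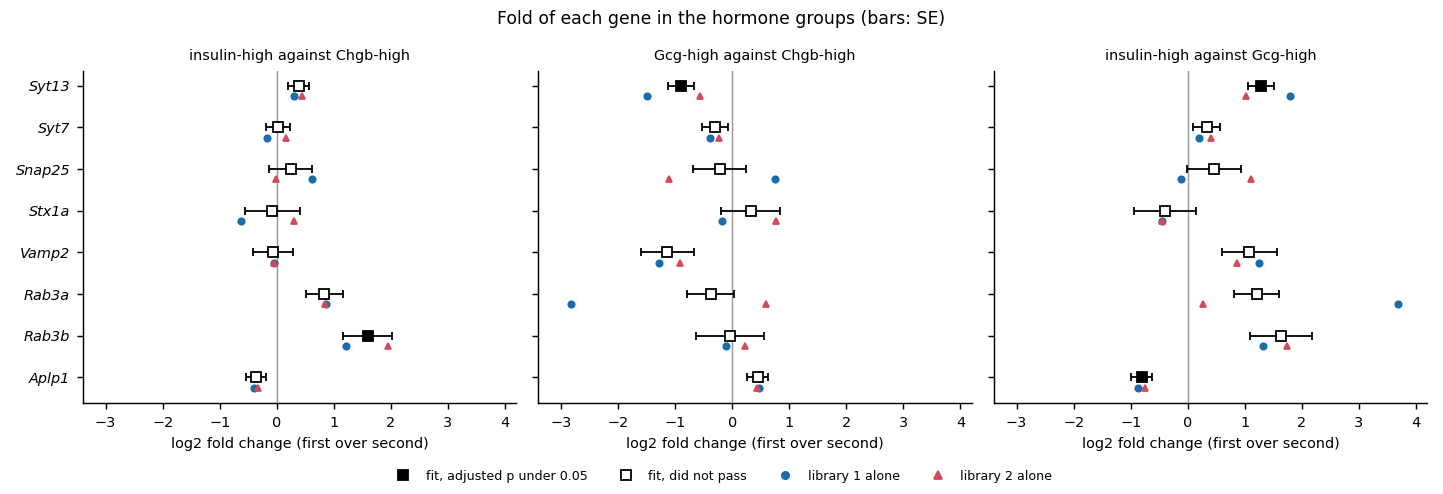
Log2 fold change of each gene in insulin-high against Chgb-high, Gcg-high against Chgb-high and insulin-high against Gcg-high cells; squares with SE bars are the fit, filled where the edgeR adjusted p was under 0.05, and smaller points are each library alone. Syt13 (1.28) and Aplp1 (-0.81) lie on opposite sides of 0 on the right, and the library points of Rab3a, 3.68 and 0.26, lie far apart.

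Within insulin-high cells the levels were also read by insulin UMIs, at 100 or more (17 and 50 cells) and at 10 to 99 (28 and 59 cells). Syt13 stood at 720 and 971 CPM in cells with 100 or more, against 677 and 877.5 CPM in those with 10 to 99, with overlapping intervals. Rab3b stood at 120 and 161 CPM in cells with 100 or more, against 144 and 45.9 CPM in those with 10 to 99. Its counting intervals overlapped widely in library 1 (62.0 to 209.6 against 76.9 to 246.8 CPM). In library 2 they did not overlap (111 to 225 against 19.8 to 90.4 CPM). The library 1 value at 10 to 99 rests on 13 UMIs in 3 cells, so that library gives no clear direction. Rab3a stood at 320 and 204 CPM against 199.8 and 189 CPM.

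Cpa1-high cells were not tested against Spp1 cells, because library 1 held only 9 of them. In library 2, on 85 cells, Syt13 stood at 58.9 CPM in Cpa1-high cells, against 48.2 CPM in Spp1 cells, and Aplp1 at 73.7 against 63.1 CPM. All 8 genes stood between 4.91 and 73.7 CPM there, and Syt13 and Aplp1 stood at 73.6 and 79.3 CPM in immune cells of the same library. The acinar levels of Syt13 and Aplp1 thus do not exceed those of immune cells.

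Genes with the pattern most like each of the 8 were ranked by Pearson's r of log2(CPM + 10) over 14 sums (7 groups in 2 libraries, which share cells of the same libraries), among 8689 genes. Syt13 was most like Syt7 (r = 0.957), followed by Rundc3a (0.953) and the microtubule gene Map1b (0.947). Syt7 was most like Map1b (0.970), Gdap1l1 (0.968) and Baiap3 (0.964), and Aplp1 most like Baiap3 (0.961), Map1b (0.949) and Syt7 (0.948). Rab3a was most like Ffar1 (0.958), a fatty acid receptor gene, then Mafg (0.916) and Pak3 (0.893). Vamp2 was most like Cryba2 (0.938), Amigo2 (0.933) and Rap1b (0.931), and Snap25 most like Tmem163 (0.916), Ap1s2 (0.916) and Prss50 (0.911). Rab3b was most like Tub (0.914), Gng12 (0.908) and Tshz1 (0.892), and Stx1a most like Hexa (0.892), Gprasp2 (0.888) and Ficd (0.888). Between members, r was 0.957 for Syt13 with Syt7 and 0.215 for Syt13 with Stx1a. These values describe the 14 sums and carry no test.

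Of 130 other genes of exocytosis, listed by role, 94 were tested. In Neurog3-high against Spp1 cells 11 of the 94 were higher and 0 lower, where 3.9% of all genes tested were higher and 3.22% lower, with 15 of the 94 higher and 2 lower with p under 0.05 before adjustment. Cplx2, a complexin that clamps the assembled SNARE bundle, was higher by 1.61 ± 0.27 on the log2 scale (edgeR adjusted p = 2.20e-06). Pclo and Rimbp2, scaffold genes of release sites, were higher by 2.14 and 1.64, Rab3d of the Rab group by 1.19, and Syt17, Ptprn2 and App by 2.39, 1.44 and 0.60. In the SNARE role 0 of 22 were higher or lower, with 2 higher and 0 lower with p under 0.05 before adjustment; with 7.12% of all genes called either way, a count of 0 among 22 says little. The median log2 fold change was 0.064 over the 94 and -0.03 over all genes.

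In Chgb-high against Neurog3-high cells 11 of the 94 were higher and 1 was lower, where 4.14% of all genes were higher and 5.8% lower, and 21 were higher and 5 lower with p under 0.05 before adjustment. The list had a median log2 fold change of 0.24 against 0.014 over all genes. Rab27a, the GTPase that docks granules beside Rab3, stood at 174 ± 40.0 CPM in Chgb-high cells, against 22.9 ± 12.6 CPM in Neurog3-high cells (mean ± SD on TMM-scaled sizes, n = 2 libraries; log2 fold change 2.98 ± 0.40, edgeR adjusted p = 5.38e-10). The granule membrane gene Ptprn was higher by 2.70 ± 0.40 and the synaptic vesicle gene Sv2a by 2.27 ± 0.51. Esyt1, which tethers the endoplasmic reticulum to the plasma membrane, was higher by 2.66, Rimbp2 by 1.81 and Vamp3 by 0.88. Aplp2, a paralogue of Aplp1, was lower (-1.52 ± 0.28, edgeR adjusted p = 1.02e-05), the opposite direction to Aplp1. Over the Neurog3+Chgb+ cells, Rimbp2 and the vesicle gene Syp were higher than in Neurog3-high cells (1.78 and 2.38), 2 of the 94, with 0 lower, where 0.739% of all genes were higher and 1.61% lower (for the list, 8 and 6 with p under 0.05 before adjustment). Ptprn was the 1 of 94 called in Chgb-high against Neurog3+Chgb+ cells, at 157 ± 63.2 CPM against 9.10 ± 12.9 CPM (3.92 ± 0.95). There 0.496% of all genes were higher and 0.131% lower (0.627% either way), so a count of 1 among 94 says little about the list. Of the 94, 9 were higher and 3 lower with p under 0.05 before adjustment.

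Between insulin-high and Gcg-high cells 3 of the 94 were higher and 0 lower (9 and 2 with p under 0.05 before adjustment), where 1.68% of all genes were higher and 1.04% lower. Sytl4, which encodes granuphilin, a Rab27a partner on insulin granules, stood at 567 ± 16.6 CPM in insulin-high cells, against 24.7 ± 10.5 CPM in Gcg-high cells (log2 fold change 4.44 ± 0.44, edgeR adjusted p = 1.12e-15). Sytl4 was also the 1 of the 94 called in insulin-high against Chgb-high cells, higher by 3.36 ± 0.31. There 1.52% of all genes were higher and 0.73% lower (2.25% either way), so a count of 1 among 94 says little about the list. Of the 94, 6 were higher and 3 lower with p under 0.05 before adjustment. Rims3 and Pclo were higher in insulin-high than in Gcg-high cells by 2.50 ± 0.74 and 1.84 ± 0.41. In Gcg-high against Chgb-high cells 1 of the 94 passed, Stx16, a SNARE gene of the trans-Golgi network, which was lower (-1.76 ± 0.45). There 0.533% of all genes were lower and 0.487% higher (1.02% either way), so a count of 1 among 94 is near the share over all genes. Of the 94, 3 were higher and 8 lower with p under 0.05 before adjustment.

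**Figure D5:**
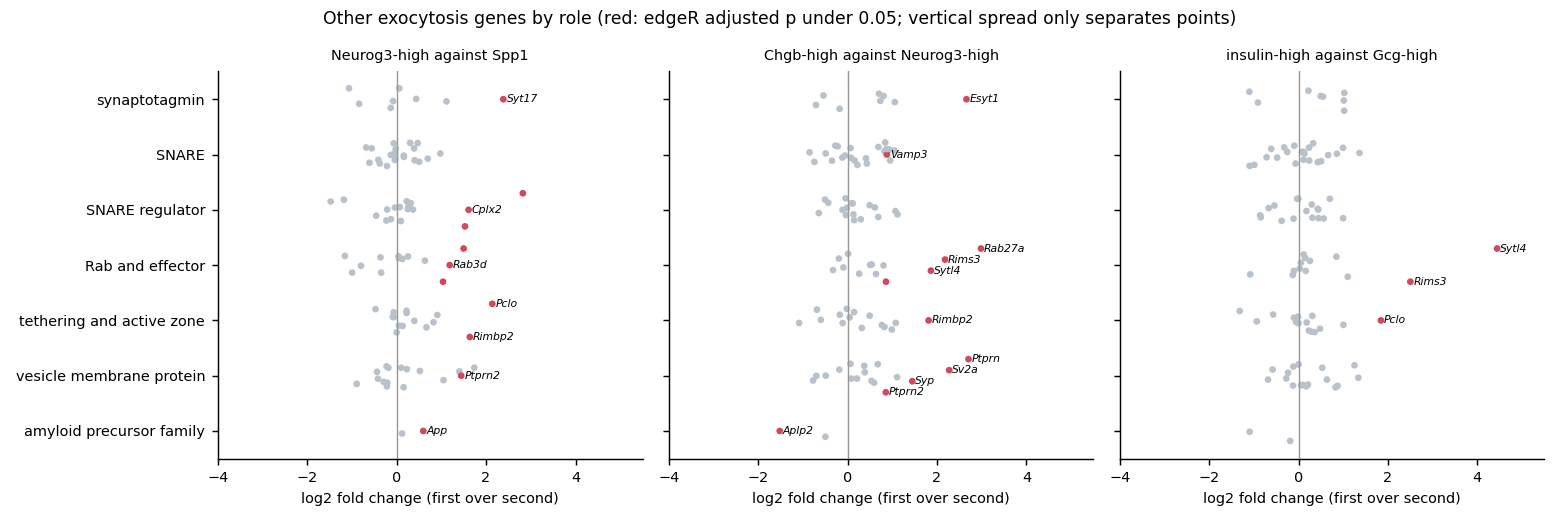
Log2 fold change of the 94 other exocytosis genes tested, in rows by role, in Neurog3-high against Spp1, Chgb-high against Neurog3-high and insulin-high against Gcg-high cells; each point is a gene, red where the edgeR adjusted p was under 0.05, with the genes given in the text named. Sytl4 is named at 4.44 in the insulin-high against Gcg-high panel, and Aplp2 is the red point left of 0 in the middle panel, at -1.52.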

How the data were processed

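UMI counts per gene symbol and cell barcode were analysed as deposited by the authors, 1 table per library; the submitters' processing notes name the build GRCm38. Which aligner, counter, annotation and strand setting were used is not stated in these sources. RNA was amplified linearly by CEL-Seq before indexing, per the labels' protocols. Cells needed 1000 UMIs, 500 genes and at most 20% mitochondrial UMIs; Scrublet (scanpy 1.11.5) removed 13 and 11 doublets.

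Counts were summed per library and group over groups with at least 10 cells in each library, 12 sums in all, and tested with the quasi-likelihood method of edgeR 4.0.16 under R 4.3.3, using TMM scaling, the default expression filter, and group plus library as terms (5 residual degrees of freedom). Both groups of each comparison come from the same libraries, hence the library term. Spread is moderated strongly across genes, hence SEs below the gap that 1 gene shows between libraries. Grouping genes were not tested, and Benjamini-Hochberg adjustment ran over all 10688 genes. SEs are the log2 fold change over the square root of F. Levels are plain CPM unless said otherwise, and folds of 1 library add 0.5 UMI. Intervals of levels and shares cover counting error only, and those of log2 fold changes are normal intervals from the SE. DESeq2 1.42.0 was an alternative.

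Genes, lists and groups were chosen with earlier results of these data known. Named genes were the 8, then up to 2 called list genes per role and comparison with the lowest adjusted p (3 likest genes per member); a few are not reported here.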

Additional observations from a re-analysis of the deposited data

How the results depend on the processing

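Of 56 results for single genes, 14 passed the test, all 14 with the same sign in both libraries, and 8 of the 14 passed in each of the 9 refits. The test was fitted on these same libraries, so the shared sign is no separate check. None of these 14 changed direction in a refit, and calls of the other exocytosis genes were not refitted. Of the numbers of genes called, these moved by more than 1.5 times. In Neurog3+Chgb+ against Neurog3-high cells 1 was higher with RLE size factors and 1 in DESeq2, against 0. In insulin-high against Chgb-high cells 0 were higher without a filter on low counts, 0 in DESeq2, 0 with no replicate block (the library term left out) and 0 with marker thresholds doubled, against 1. In Gcg-high against Chgb-high cells 1 was higher without other hormone cells, against 0, and 0 were lower in DESeq2 and with no replicate block, against 1. In insulin-high against Gcg-high cells 3 were higher when only the groups compared were fitted, 2 with doubled thresholds and 2 with markers scaled to 3000 UMIs, against 1, and 0 were lower with no replicate block, against 1. In Chgb-high against Neurog3-high cells DESeq2 called 4 higher, against 7. The cause was not tested. Leaving out a library leaves no spread to test, so only folds were read. Of these folds of 1 library, 19 lay more than 1 SD between libraries from the fitted value and 93 did not. That SD comes from the same 2 folds and grows with their gap, so the 93 do not show that the libraries agree. Among called genes the libraries stood far apart for Stx1a in Chgb-high against Neurog3-high cells (log2 fold change 1.19 in library 1 and 2.62 in library 2, 1.80 fitted) and for Syt13 in Gcg-high against Chgb-high cells (-1.50 and -0.56, -0.90 fitted). The comparisons with Neurog3+Chgb+ cells could not be fitted with doubled thresholds, scaled markers or other hormone cells left out, and Cpa1-high against Spp1 cells in none of the fits. Depth limits Rab3b, Stx1a and Rab3a most, with 5 and 4, 10 and 4, and 8 and 8 UMIs in the Neurog3-high cells of the libraries.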

Other observations

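The 103 and 210 cells that met no grouping rule held Aplp1 at 562 and 710 CPM, Syt13 at 306 and 364 CPM and Rab3a at 72.9 and 86.8 CPM. The other hormone genes Ghrl, Sst, Ppy and Pyy summed to 4458 and 9749 CPM in them, and mesenchyme markers to 499.9 and 1707 CPM.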
